A study of Homo sapiens with 12 samples.

Results

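The D-type cyclins, their kinase partners and the RB family are described here across 12 RNA libraries of A549, a human lung adenocarcinoma cell line. The members were chosen by gene name: CCND1, CCND2, CCND3, CDK4, CDK6, RB1, RBL1 and RBL2 make up 8 of the 40605 named rows of the merged count table. All A549 lines studied carried a tetracycline-inducible DYRK1B transgene, encoding wild-type (WT) kinase or the form Y273F, in which phenylalanine replaces a tyrosine of the activation loop. Cultures of both lines grew for 7 days, either untreated (control) or with doxycycline at 2 µg/ml. The titles thus give 4 groups of 3 libraries, control and doxycycline for the WT line and the same for the Y273F line. A line without a transgene was not analysed here, so effects of doxycycline itself and of DYRK1B cannot be told apart, and the labels do not say whether a line was a single clone. Replicates came from separate cell populations grown in parallel.

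The libraries are numbered 1 to 12 in the labels, so that WT control is 1 to 3, WT doxycycline 4 to 6, Y273F control is 7 to 9, and Y273F doxycycline 10 to 12. Besides the groups in the titles, members are described by 4 sets whose library numbers lie 4 apart: 1, 5 and 9; 2, 6 and 10; 3, 7 and 11; and 4, 8 and 12. The labels give these sets no condition, so they were compared by their values only, with no test. This is done because the libraries did not follow their titles in every respect. DYRK1B, the gene to be induced, was read at 12.4 to 28.0 CPM (read counts scaled to the size of the library) in libraries 4, 8 and 12, labelled as WT doxycycline 1, as Y273F control 2 and as Y273F doxycycline 3, and at 2.60 to 7.73 CPM in the other 9. Libraries 2, 6 and 10, which carry the labels WT control 2, WT doxycycline 3 and Y273F doxycycline 1, lay far from the rest on the first principal component of the 500 most variable genes, at 42.7 to 46.9 against at most -4.74 elsewhere. Total counts ranged from 2815673 to 22319921, so that 3 counts corresponded to 0.134 to 1.07 CPM. The epithelial markers KRT8, KRT18, KRT19, EPCAM and CDH1 summed to 3026 to 4564 CPM in the 9 other libraries and to 7967 to 10979 CPM in libraries 2, 6 and 10, nearly all of it KRT18 and KRT8. CDH1 went the other way, with 24.3 to 30.2 CPM in libraries 2, 6 and 10 and 43.4 to 65.6 CPM in the other 9, and EPCAM had medians of 5.38 and 13.5 CPM with overlap. All 12 libraries held at most 3.21 CPM of the 6 blood and endothelial markers together, with CD3E at 0.

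In G1, D-type cyclins bind and activate CDK4 and CDK6, which phosphorylate RB1 and the related pocket proteins p107 (RBL1) and p130 (RBL2). Unphosphorylated pocket proteins hold E2F transcription factors in check, and p130 or p107 together with the MuvB proteins forms the DREAM complex that keeps cell cycle genes off in quiescent cells. DYRK1B is known as a kinase of quiescent cells that phosphorylates cyclin D1 and the inhibitor p27, both as proteins, which RNA counts do not measure.

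Promoter sequences are shown first for 4 members that differ in the motifs they hold and in how their RNA varied. Each is the 250 bases before the annotated start in RefSeq (GRCh38.p14), 5′ to 3′ on the gene's strand. The motifs searched were the E2F letters TTTGGCGC, TTTCGCGC, TTTCCCGC and TTTGCCGC and the E-box CACGTG, on both strands, and matches are in capitals. RBL1 (chr20:37095998-37096247, minus strand) and CDK6 (chr7:92836574-92836823, minus strand) lay in windows next to their genes, as did RBL2 (chr16:53434221-53434470, plus strand) and CDK4 (chr12:57752311-57752560, minus strand).
RBL1: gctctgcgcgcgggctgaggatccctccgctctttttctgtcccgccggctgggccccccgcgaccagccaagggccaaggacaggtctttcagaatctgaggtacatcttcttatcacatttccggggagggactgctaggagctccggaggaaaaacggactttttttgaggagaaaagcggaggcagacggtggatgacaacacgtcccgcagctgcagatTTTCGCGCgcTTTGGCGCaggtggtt
RBL2: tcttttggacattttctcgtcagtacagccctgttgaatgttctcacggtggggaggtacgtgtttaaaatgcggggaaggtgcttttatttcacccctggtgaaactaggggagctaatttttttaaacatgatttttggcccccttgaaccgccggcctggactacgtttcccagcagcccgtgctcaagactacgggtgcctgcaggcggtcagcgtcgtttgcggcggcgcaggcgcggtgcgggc
CDK4: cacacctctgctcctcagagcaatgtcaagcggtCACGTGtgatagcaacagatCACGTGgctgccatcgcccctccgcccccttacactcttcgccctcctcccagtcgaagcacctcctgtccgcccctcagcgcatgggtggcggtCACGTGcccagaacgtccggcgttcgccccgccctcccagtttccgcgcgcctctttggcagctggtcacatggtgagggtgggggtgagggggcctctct
CDK6: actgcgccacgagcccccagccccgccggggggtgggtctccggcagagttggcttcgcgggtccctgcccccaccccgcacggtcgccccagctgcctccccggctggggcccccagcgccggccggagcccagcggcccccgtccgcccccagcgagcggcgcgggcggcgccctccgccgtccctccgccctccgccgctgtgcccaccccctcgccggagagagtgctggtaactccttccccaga
The RBL1 window held 2 E2F matches, TTTCGCGC at 26 to 19 bases and TTTGGCGC at 16 to 9 bases before the start. Of all 35116 windows of this length, 2.788% held an E2F match and 0.1225% held 2 or more. The CDK4 window held 3 E-boxes, which begin 216, 196 and 101 bases before the start. An E-box was present in 6.345% of all windows, and 0.5354% held 2 or more. No window of CDK6, RBL2, CCND3 or RB1 held a match to either motif, which says only that these letters are not in those windows. The window of RB1 (chr13:48476200-48476449) lies inside the gene, as do all windows of CCND3 and a further window each of CDK6 and RBL2.

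CCND1 (ENSG00000110092, chr11:69641156-69654474) encodes cyclin D1, the D-type cyclin most often linked to growth factor signals in epithelial cells. It was read at 184, 248 and 145 CPM in WT control 1 to 3, at 184, 194 and 239 CPM in WT doxycycline 1 to 3, at 173, 203 and 210 CPM in Y273F control 1 to 3, and at 255, 178 and 208 CPM in Y273F doxycycline 1 to 3. The highest library of 3 of the 4 groups was 2, 6 or 10, and all groups overlapped. By set, the median was 173 CPM in libraries 3, 7 and 11, 194 CPM in 1, 5 and 9, 203 CPM in 4, 8 and 12, and 248 CPM in 2, 6 and 10. The sets 1, 5, 9 and 4, 8, 12 overlapped, and the set 2, 6, 10 lay above all others at 239 to 255 CPM. The set 3, 7, 11 lay below all others, but library 11, at 178 CPM, was within counting error of libraries 1 and 4, at 184 CPM each. As the RNA came from whole cultures, fewer cells with a transcript and less of it per cell cannot be told apart here or below.

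CCND3 (ENSG00000112576, chr6:41934933-42050035) encodes cyclin D3. Its values were 87.3, 138 and 67.6 CPM in WT control 1 to 3, 55.3, 92.4 and 132 CPM in WT doxycycline 1 to 3, 117, 72.2 and 80.4 CPM in Y273F control 1 to 3, and 147, 92.9 and 67.8 CPM in Y273F doxycycline 1 to 3. The coefficient of variation over the 12 libraries was 31.9%, the highest of the 7 members with usable counts. By set, libraries 4, 8 and 12 had 55.3 to 72.2 CPM, libraries 1, 5 and 9 had 80.4 to 92.4 CPM, libraries 3, 7 and 11 had 67.6 to 117 CPM and libraries 2, 6 and 10 had 132 to 147 CPM. CCND3 thus had its low values in libraries 4, 8 and 12 and its high ones in 2, 6 and 10. Libraries 3, 7 and 11 reached from within the range of 4, 8, 12 to above that of 1, 5, 9. CCND2 (ENSG00000118971, chr12:4273762-4305353), the gene of cyclin D2, had 9 counts in all: 5 in WT control 1, 3 in Y273F control 3, 1 in Y273F doxycycline 3 and 0 in the other 9 libraries. The largest upper bound of its exact 95% Poisson interval in any library was 1.30 CPM, so CCND2 RNA was not detectable above that level, and it was too low to be tested.

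CDK4 (ENSG00000135446, chr12:57747727-57752310), a kinase subunit activated by D-type cyclins, was the steadiest member, with a coefficient of variation of 9.06%. It was read at 110, 99.1 and 121 CPM in WT control 1 to 3, at 122, 116 and 91.5 CPM in WT doxycycline 1 to 3, at 109, 127 and 109 CPM in Y273F control 1 to 3, and at 109, 122 and 112 CPM in Y273F doxycycline 1 to 3. Libraries 2, 6 and 10 had its 3 lowest values, but the highest of them, 109.28 CPM, was within counting error of the lowest of the other 9, 109.35 CPM. The medians of the other sets, 110 CPM in 1, 5 and 9, 121 CPM in 3, 7 and 11 and 122 CPM in 4, 8 and 12, came from overlapping ranges.

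CDK6 (ENSG00000105810, chr7:92604921-92836573), the other kinase subunit that D-type cyclins activate, varied more, with an SD of 24.3 CPM around a mean of 83.6 CPM over the 12 libraries. It had 61.5, 109 and 59.8 CPM in WT control 1 to 3, 63.4, 64.4 and 126 CPM in WT doxycycline 1 to 3, 74.8, 94.4 and 66.1 CPM in Y273F control 1 to 3, and 124, 76.5 and 83.5 CPM in Y273F doxycycline 1 to 3. All libraries other than 2, 6 and 10 lay between 59.8 and 94.4 CPM, and the sets 1, 5, 9 (median 64.4 CPM), 3, 7, 11 (74.8 CPM) and 4, 8, 12 (83.5 CPM) overlapped. The libraries 2, 6 and 10 were at 109 to 126 CPM, above all others, where CDK4 had its lowest values.

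RB1 (ENSG00000139687, chr13:48303751-48481890) encodes the retinoblastoma protein, the founding pocket protein. It was read at 26.5, 23.8 and 31.7 CPM in WT control 1 to 3, at 29.3, 22.4 and 19.0 CPM in WT doxycycline 1 to 3, at 26.1, 26.5 and 32.0 CPM in Y273F control 1 to 3, and at 19.0, 26.7 and 27.9 CPM in Y273F doxycycline 1 to 3. The set medians were 19.0 CPM in libraries 2, 6 and 10, 26.5 CPM in 1, 5 and 9, 26.7 CPM in 3, 7 and 11 and 27.9 CPM in 4, 8 and 12. Each set overlapped the next in this order, and the lowest set reached 23.8 CPM, above library 5 at 22.4 CPM.

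RBL1 (ENSG00000080839, chr20:36996349-37095997) encodes p107, whose gene carried the E2F letters shown above. It had the fewest counts of the tested members, 41 to 578 per library. Its values were 18.6, 9.13 and 19.0 CPM in WT control 1 to 3, 24.0, 18.6 and 14.2 CPM in WT doxycycline 1 to 3, 21.7, 26.8 and 25.5 CPM in Y273F control 1 to 3, and 16.2, 15.4 and 22.7 CPM in Y273F doxycycline 1 to 3. The Y273F control libraries lay above the WT control libraries without overlap, but the nearest of them, at 21.7 and 19.0 CPM, were within counting error. By set, the order of medians was 14.2 CPM in libraries 2, 6 and 10, 18.6 CPM in 1, 5 and 9, 19.0 CPM in 3, 7 and 11 and 24.0 CPM in 4, 8 and 12. The middle 2 sets overlapped each other, and the set 4, 8, 12 (22.7 to 26.8 CPM) overlapped 1, 5, 9 because of library 9 at 25.5 CPM.

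RBL2 (ENSG00000103479, chr16:53434471-53491648) encodes p130, the pocket protein most abundant in quiescent cells. It was read at 35.0, 30.3 and 47.9 CPM in WT control 1 to 3, at 50.2, 40.0 and 38.1 CPM in WT doxycycline 1 to 3, at 41.9, 41.8 and 36.7 CPM in Y273F control 1 to 3, and at 32.0, 37.3 and 40.3 CPM in Y273F doxycycline 1 to 3. Libraries 3 and 4, which are labelled WT control and WT doxycycline, were the highest, and all groups overlapped. The set medians rose from 32.0 CPM in libraries 2, 6 and 10 through 36.7 CPM in 1, 5 and 9 to 41.8 CPM in 4, 8 and 12 and 41.9 CPM in 3, 7 and 11. Neighbours in this order overlapped, except that the highest of 1, 5 and 9, 39.957 CPM, was just below the lowest of 4, 8 and 12, 40.313 CPM, a gap within counting error.

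**Figure D1:**
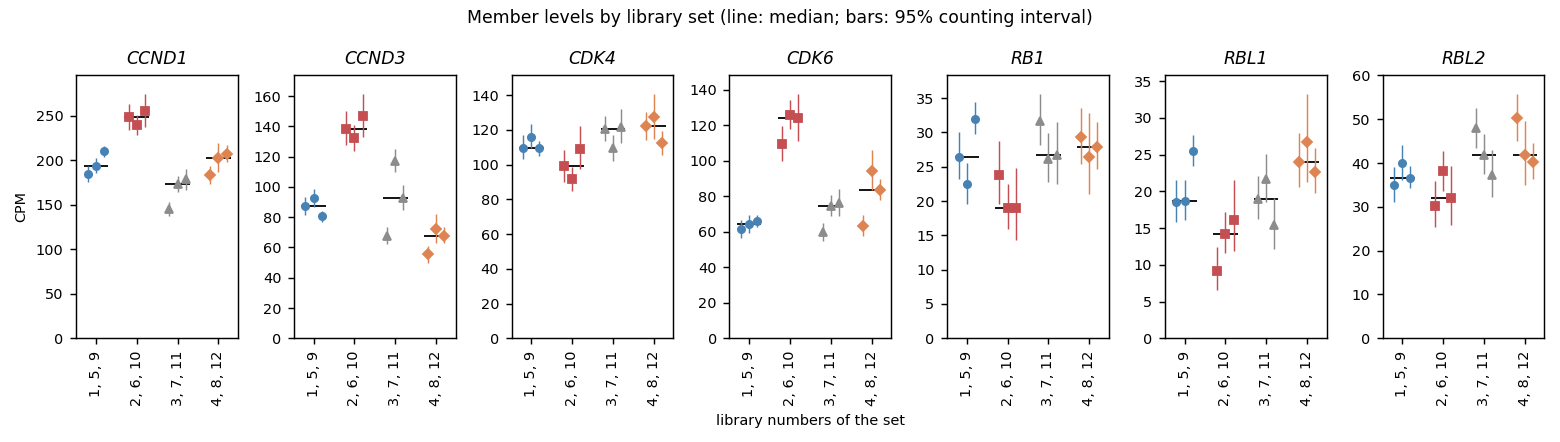
CPM (vertical axis) of the 7 tested members by library set (horizontal axis), with each library as a point, the set median as a line and the 95% counting interval as a bar. CCND1, CCND3 and CDK6 are highest in libraries 2, 6 and 10, where RB1, RBL1 and RBL2 have their lowest set medians, and CDK4 stays between 91.5 and 127 CPM.

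The first comparison asked whether doxycycline changed these genes in the line with the wild-type kinase. No member passed the test: 0 of 7 tested members and 0 of 13838 genes (0.0% in either direction) passed an adjusted p of 0.05 in edgeR's quasi-likelihood test, where the smallest adjusted p was 1.00. The unadjusted p was under 0.05 for 134 genes, and for 116 with DESeq2 and 158 with limma-voom, none of them members, and these tools also called 0 genes. For CCND1 the mean was 193 ± 52.3 CPM in WT control and 206 ± 29.6 CPM in WT doxycycline (SD, n = 3), a log2 fold change of 0.10 (SE 0.20, 95% interval -0.35 to 0.54). The member with the largest fitted difference was RBL1, at 15.6 ± 5.57 and 19.0 ± 4.92 CPM (SD, n = 3), with a log2 fold change of 0.27 (SE 0.28). The other log2 fold changes lay between -0.22 (RB1) and 0.17 (RBL2). No member separated the groups without overlap, as 3.27% of all tested genes did (1.53% higher and 1.73% lower). DYRK1B itself did not pass, with a log2 fold change of 1.44 (SE 0.82, 95% interval -0.36 to 3.23). Its higher values were in libraries 4, 8 and 12, which carry labels of both control and doxycycline. Comparisons by the titles thus cannot show whether higher DYRK1B RNA changed the members.

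In the Y273F line the same comparison gave 0 of 7 members and 0 of 13838 genes (0.0%) with an edgeR adjusted p under 0.05, the smallest being 0.992. Here 225 genes had an unadjusted p under 0.05 (232 with DESeq2 and 223 with limma-voom, which also called 0), again with no member among them. CDK6 was at 78.4 ± 14.5 CPM in Y273F control and 94.7 ± 25.7 CPM in Y273F doxycycline (SD, n = 3), a log2 fold change of 0.27 (SE 0.32, 95% interval -0.43 to 0.98). RBL1 was at 24.7 ± 2.66 and 18.1 ± 4.00 CPM (SD, n = 3), a log2 fold change of -0.43 (SE 0.28, 95% interval -1.06 to 0.19). The groups overlapped for all 7 members, while 10.9% of all tested genes had no overlap (5.23% higher and 5.63% lower). DYRK1B did not pass here either, with a log2 fold change of 0.87 (SE 0.84, 95% interval -0.96 to 2.71), so the same limit holds.

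Whether doxycycline acted differently in the 2 lines was tested as the WT effect minus the Y273F effect. In this fit, too, 0 of 7 members and 0 of 13838 genes (0.0%) passed, the smallest edgeR adjusted p being 1.00, with 165 genes at an unadjusted p under 0.05 and no member among them. DESeq2 and limma-voom had 144 and 161 such genes and called 0. The difference was largest for RBL1, at 0.70 on the log2 scale (SE 0.40, 95% interval -0.18 to 1.58), and next for RBL2, at 0.30 (SE 0.26). For CDK4 it was 0.01 (SE 0.19, 95% interval -0.41 to 0.43), the narrowest interval of the 7. The interval of CCND3, -1.40 to 0.92, was the widest.

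Without doxycycline, the lines were compared as Y273F control against WT control. RBL1 was the 1 member that separated these groups, at 24.7 ± 2.66 CPM in Y273F control and 15.6 ± 5.57 CPM in WT control (SD, n = 3). Its log2 fold change was 0.64 (SE 0.28, 95% interval 0.02 to 1.26), with an unadjusted p of 0.0428 and an adjusted p of 0.994 in edgeR's quasi-likelihood test, so it did not pass. Separation without overlap was seen in 10.8% of all tested genes (5.80% higher and 5.02% lower), against 1 of 7 members. The gap for RBL1, between libraries 7 and 3, was within counting error. Across genes, 0 of 13838 (0.0%) and 0 of 7 members passed, 460 genes had an unadjusted p under 0.05 (481 with DESeq2 and 478 with limma-voom, which also called 0), and RBL1 was the only member among them with each of these tools. The other members lay between -0.11 (CCND3) and 0.08 (RBL2) on the log2 scale. Without libraries 2, 6 and 10, RBL1 was at 0.38 (SE 0.19) and CDK6 moved from 0.03 to 0.35 (SE 0.14), with adjusted p of 0.874 and 0.847 in edgeR.

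**Figure D2:**
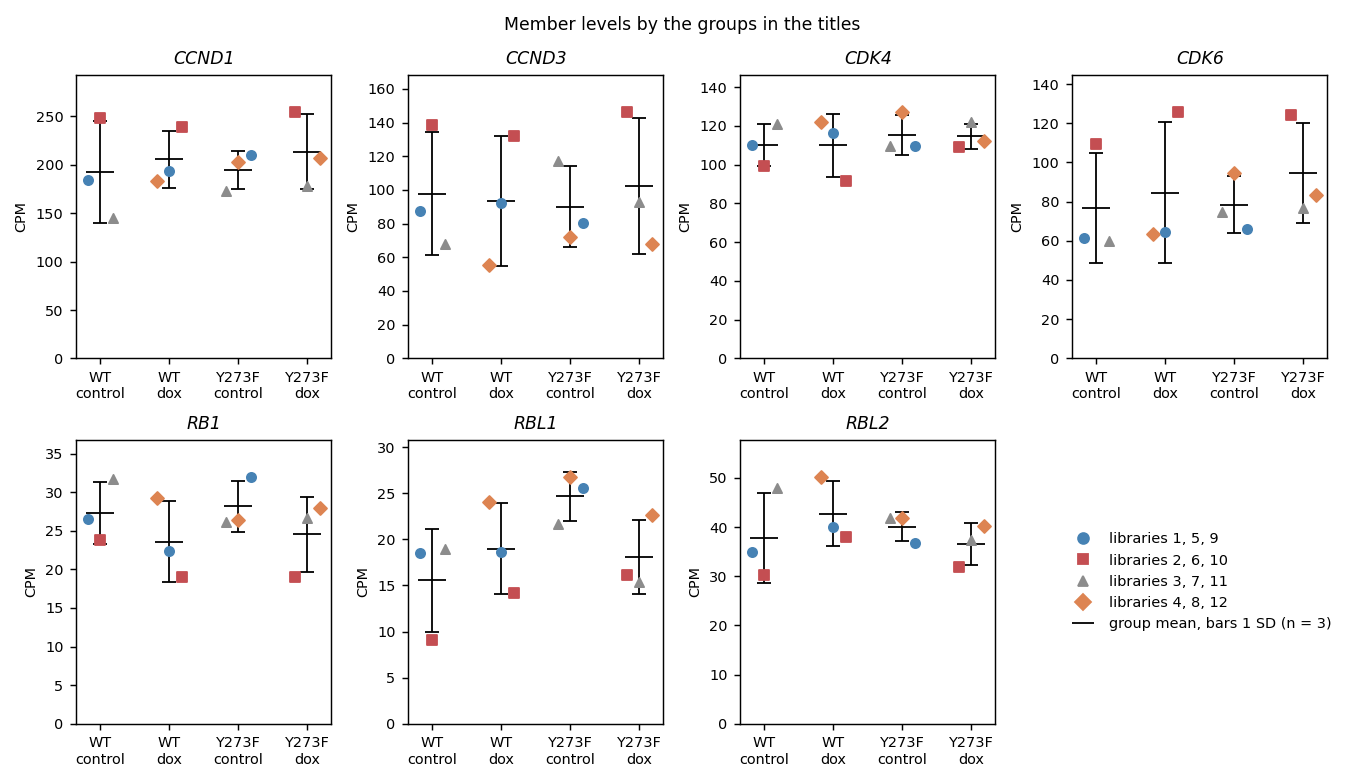
CPM (vertical axis) of the 7 tested members by the groups in the titles (horizontal axis), with the group mean and 1 SD (n = 3) and each library as a point whose colour and shape give its library set. For CCND1, CCND3 and CDK6 the library of the set 2, 6, 10 is the highest of its group, and Y273F control, which has none, shows the smallest SD.

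**Figure D3:**
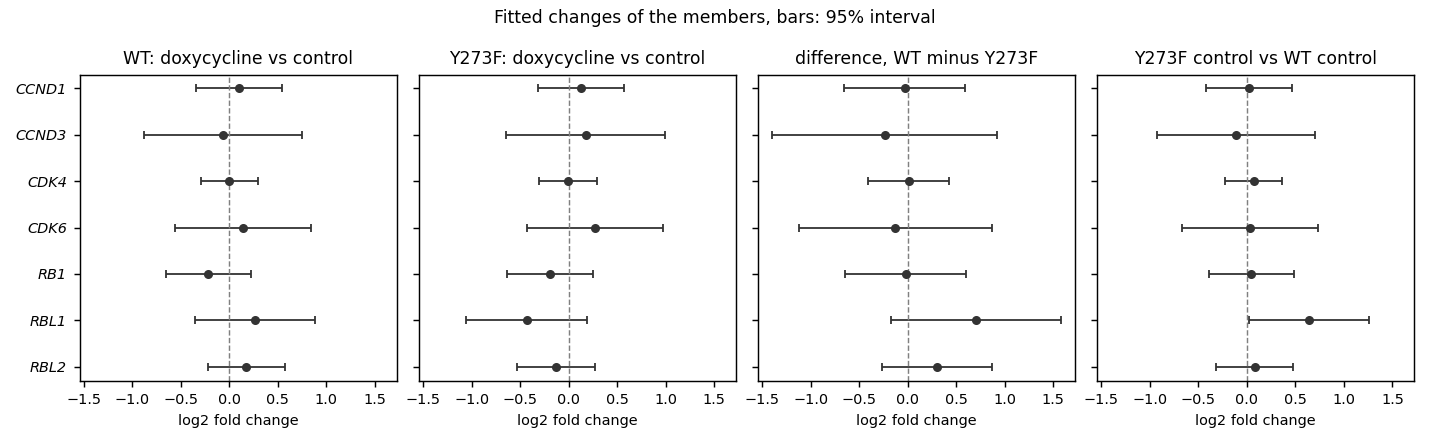
Log2 fold changes (horizontal axis) of the 7 tested members (vertical axis) in the 4 comparisons of labelled groups, with 95% intervals from the edgeR fit as bars. All intervals include 0 except that of RBL1 in Y273F control against WT control, 0.02 to 1.26.

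Libraries 2, 6 and 10 lay apart from all other 9 libraries for 4 of 7 members. CCND1, CCND3 and CDK6 were higher, with ratios of medians of 1.35, 1.72 and 1.88. CDK4 was lower, with a ratio of 0.853 and a gap to the other 9 within counting error. Among all tested genes 34.1% lay apart in the same way (18.5% higher and 15.6% lower). RB1, RBL1 and RBL2 had ratios of 0.712, 0.656 and 0.793 with overlapping ranges.

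Against libraries 1, 5 and 9 alone, 5 of 7 members of the set 2, 6, 10 did not overlap, beside 54.2% of all tested genes (27.2% higher and 27.0% lower). CDK6 had the largest ratio of medians, 1.92, followed by CCND3 at 1.59 and CCND1 at 1.28. RBL1 had the lowest of those without overlap, 0.762, and CDK4 was at 0.902, both by gaps within counting error. Against libraries 4, 8 and 12, all 7 tested members were separated, 3 higher and 4 lower, beside 47.0% of all tested genes (24.7% higher and 22.3% lower). The gaps of CDK4, RB1 and RBL2 were within counting error, and with unstranded counts CCND1 was not higher. The largest ratio there was 2.04 for CCND3 and the smallest 0.591 for RBL1. Both comparisons share libraries 2, 6 and 10.

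The set with the higher DYRK1B RNA, libraries 4, 8 and 12, differed from libraries 3, 7 and 11 without overlap for 2 of 7 members, beside 17.3% of all tested genes (8.80% higher and 8.53% lower). CCND1 was higher with a ratio of 1.17, and RBL1 was higher with a ratio of 1.27, both by gaps within counting error. CCND3 had a ratio of 0.730, but library 3, at 67.6 CPM, lay within the range of the other set. CDK4, CDK6, RB1 and RBL2 had ratios between 0.999 and 1.12 and overlapped. Between libraries 3, 7 and 11 and libraries 1, 5 and 9, 1 of 7 members did not overlap, beside 19.3% of all tested genes (9.42% higher and 9.89% lower). That member was CCND1, lower with a ratio of 0.891, again by a gap within counting error. With 7 members and no condition given for the sets, nothing in these counts is read as particular to the members.

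Of 6 fibroblast markers, COL1A1 and LUM were higher in the set 2, 6, 10. The 6 together summed to 146 to 210 CPM there and to 14.2 to 31.6 CPM elsewhere. COL1A1 made up nearly all of this sum, with 134 to 195 CPM against 13.1 to 30.2 CPM, and LUM had 11.3 to 13.6 CPM against at most 1.54 CPM. COL3A1, COL1A2, PDGFRB and DCN were below 1 CPM in all 12 libraries, and COL3A1 had a lower median in 2, 6 and 10, 0.276 against 0.427 CPM. The part of these genes in the members' values was not tested. The depth of libraries 2, 6 and 10 lay within the range of the other 9 for 2 of them, and library 10 was the shallowest of all.

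The inhibitors of CDK4 and CDK6 and the factors that assemble the complexes were read beside the members. None of the 6 tested genes of this list of 8 was called in any of the 4 comparisons of labelled groups. CDKN2A and CDKN2B, which encode the inhibitors p16 and p15, had 0 counts in all 12 libraries, which allows up to 0.134 to 1.07 CPM depending on depth. CDKN1A, the gene of the inhibitor p21, had a median of 253 CPM in libraries 2, 6 and 10 and of 52.8 CPM in the other 9, where the highest value was 62.3 CPM. CDKN1B, the gene of p27, was at 27.1 to 36.0 CPM there and 52.7 to 71.9 CPM elsewhere. CDC37, a kinase chaperone factor that helps CDK4 fold, had 278 to 284 CPM there and 165 to 208 CPM elsewhere. Of this list, 3 of 6 tested genes were higher and 3 lower without overlap in the set 2, 6, 10 against 1, 5, 9, where 27.2% of all tested genes were higher and 27.0% lower. The CDK-activating kinase, which phosphorylates the activation loop of CDK4 and CDK6, had 1 of 3 genes higher in that comparison. Its catalytic subunit gene CDK7 was at 56.6 to 74.9 CPM against 42.1 to 48.5 CPM, while that of its cyclin H, CCNH, overlapped at 30.2 to 39.0 and 35.8 to 36.1 CPM. Of 11 genes that act in the turnover of D-type cyclins, 4 were higher and 2 lower without overlap, a share close to the 54.2% of all tested genes. The ubiquitin ligase genes DDB1 and CUL4B had medians of 167 and 113 CPM against 174 and 91.0 CPM.

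Downstream of the pocket proteins, most E2F targets were lower in libraries 2, 6 and 10. The E2F, DP and cyclin E lists had more medians below those of libraries 1, 5 and 9 than above, but not all. Of 20 G1/S genes known as E2F targets, 18 were lower and 0 higher without overlap against libraries 1, 5 and 9, with a median log2 ratio of -0.77 beside -0.01 over all tested genes, of which 27.0% were lower and 27.2% higher in this comparison. RRM1, a subunit of ribonucleotide reductase, was at 238 to 257 CPM there and 393 to 443 CPM in 1, 5 and 9, and PCNA, the sliding clamp of DNA polymerases, at 135 to 172 and 275 to 309 CPM. All 6 tested genes of the DREAM and MuvB list were lower without overlap (median -0.45), among them the histone chaperone gene RBBP4 at 51.5 to 65.5 against 82.0 to 92.0 CPM and FOXM1, a factor that drives mitotic genes, at 45.7 to 58.8 against 72.0 to 77.8 CPM. The 10 E2F and DP genes had a median log2 ratio of -0.36. Beside 27.0% lower and 27.2% higher of all tested genes (54.2% together), 5 of the 10 were lower and 1 higher without overlap. The higher one was E2F4, which encodes an E2F that acts mainly as a repressor with p130 and p107, at 46.4 to 52.4 against 36.2 to 43.7 CPM. The 2 with the highest mean CPM, the partner genes TFDP1 and TFDP2, had medians of 82.2 and 55.9 CPM against 88.0 and 51.9 CPM. The list of CCNE1, CCNE2, CDK2 and CDC25A, the last a phosphatase that activates CDK2, had a median log2 ratio of -0.48. Beside the same shares of all tested genes, 0 were higher and 2 of 4 lower without overlap. They were CCNE2 at 2.46 to 3.45 against 6.04 to 9.05 CPM and CDK2 at 77.7 to 88.6 against 109 to 123 CPM, while the cyclin E1 gene CCNE1 had medians of 19.6 and 16.7 CPM. E2F4, CCNE2, CDC25A and the single markers were named after their values were seen. These lists were chosen with earlier results of these libraries known, and the E2F targets had been seen to be lower there, so the counts describe the samples and are no independent evidence.

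By the titles, 0 genes of any of these 7 lists passed the test in the 4 comparisons. In the Y273F line with doxycycline against without, 19 of 20 E2F targets had a negative log2 fold change, with a median of -0.26. Over all tested genes 6813 of 13838 were negative, with a median of 0.01. In the WT line 16 of 20 were negative, with a median of -0.06, beside 6970 of 13838 and 0.00 over all tested genes. In Y273F control, the one group without a library of the set 2, 6, 10, 19 of 20 were above WT control, with a median of 0.19. Of all tested genes 6480 of 13838 were above, with a median of -0.02. Y273F doxycycline holds library 10 of that set, and the part of this library in the signs was not tested.

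**Figure D4:**
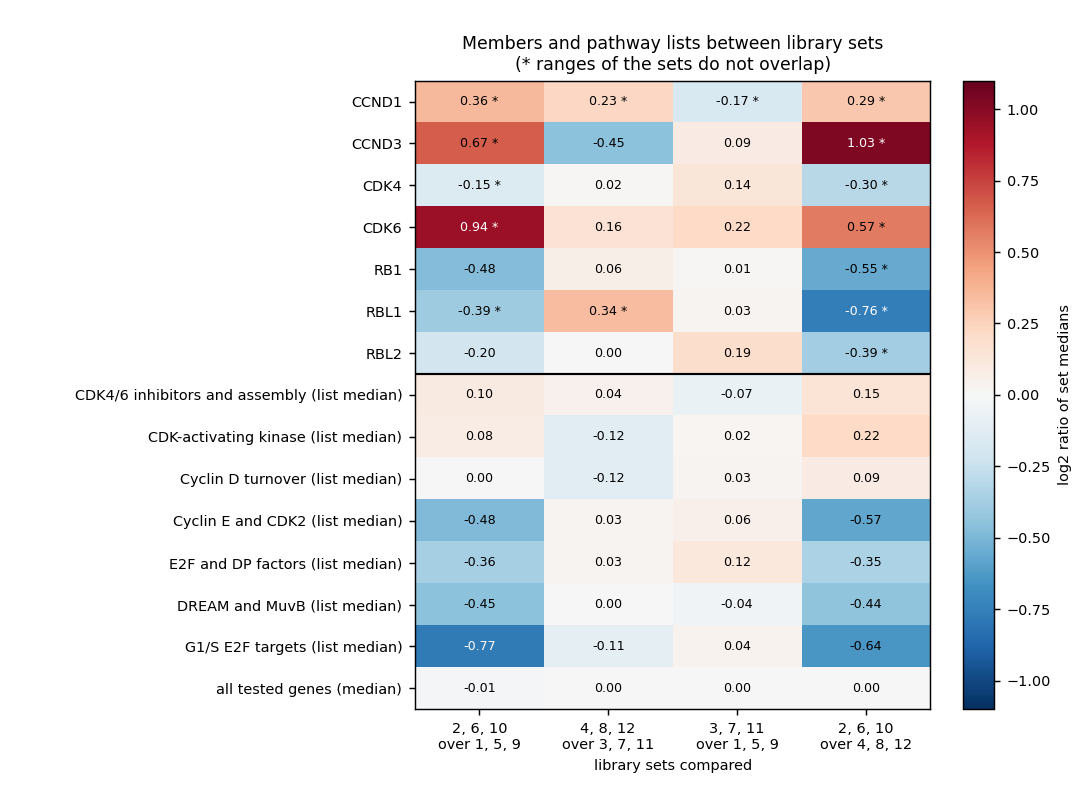
Log2 ratios of set medians (colour and printed value) for the 7 tested members and the medians of the 7 pathway lists and of all tested genes (rows) in 4 pairs of library sets (columns). An asterisk marks members whose ranges do not overlap, some by gaps within counting error. The columns with libraries 2, 6 and 10 hold the darkest cells, from -0.77 for the E2F targets to 1.03 for CCND3.

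The genes whose levels tracked each member most closely were sought among 10460 genes with a mean of at least 5 CPM, by Pearson's r of log2 CPM over the 12 libraries and then over the 9 without 2, 6 and 10. The libraries share depth and set, so r is a description. CDK6 had the closest neighbours, TNFRSF10A (r = 0.986, and 0.950 over 9), ITSN1 (0.984 and 0.948) and ARHGAP29 (0.981 and 0.949). RBL1 was closest to UFL1 (0.972 and 0.948), YY1 (0.937 and 0.781) and CHD6 (0.934 and 0.844). For CCND1 they were CD151 (0.950 and 0.879), SLC39A14 (0.950 and 0.908) and DGKD (0.946 and 0.881), and for CCND3 ALAS1 (0.935 and 0.873), ZNHIT1 (0.934 and 0.929) and PRXL2A (0.925 and 0.831).

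RBL2 was closest to UQCRB (0.947 and 0.932), TTC21B (0.941 and 0.911) and NUBPL (0.938 and 0.916). RB1 had SKA3 (0.928 and 0.753), DEPDC1B (0.927 and 0.751) and ATL2 (0.920 and 0.821), whose r fell more without libraries 2, 6 and 10. CDK4 had WDR89 (0.933 and 0.895), DEPDC1 (0.912 and 0.796) and RPL10P6 (0.900 and 0.604). Among the members themselves, CCND1 and CDK6 had the highest r, 0.828, which was 0.480 over the 9 libraries. CCND1 and CCND3 had 0.625 over 12 libraries and -0.04 over 9, so their likeness rested on libraries 2, 6 and 10.

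For 3 members the strand of the reads decides how much is counted, because a gene on the other strand overlaps their 3′ end, where these reads fall. CDK4 had 10919 counts on the transcript strand in the 12 libraries together and kept 11 of them (0.101%) when strand was ignored and reads over 2 genes were dropped. It overlaps TSPAN31, a tetraspanin gene, over 2485 bases (chr12:57747727-57750211, GENCODE 29 on GRCh38). CCND1 kept 2619 of 19356 counts (13.5%) and overlaps LTO1 over 1399 bases (chr11:69653076-69654474). RBL2 kept 744 of 3860 (19.3%) and overlaps AKTIP over 610 bases (chr16:53491040-53491649). The other 4 tested members kept nearly all of their counts, for example 2006 of 2006 for RBL1 and 7489 of 7490 for CDK6. The library preparation keeps strand and the transcript-strand counts were used throughout. With unstranded counts CCND1 no longer lay above libraries 4, 8 and 12 in the set 2, 6, 10: the log2 ratio turned from 0.29 to -0.21.

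**Figure D5:**
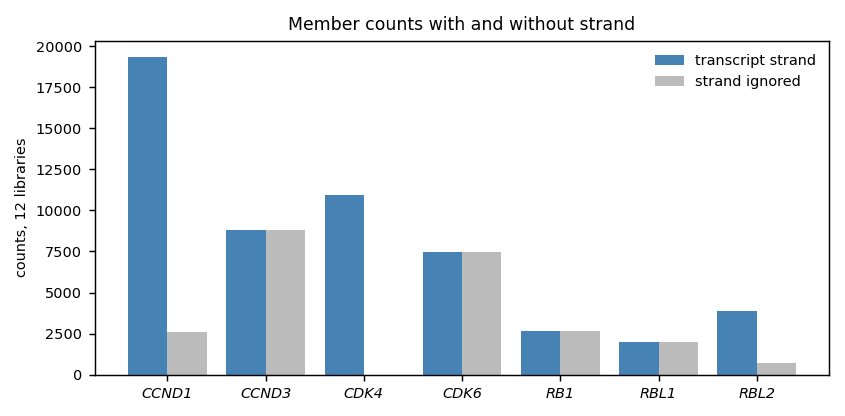
Counts summed over the 12 libraries (vertical axis) for the 7 tested members (horizontal axis), on the transcript strand and with strand ignored. CDK4, CCND1 and RBL2 lose most of their counts without strand, keeping 0.101%, 13.5% and 19.3%.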

How the data were processed

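Column-purified RNA was sequenced with the QuantSeq FWD V2 kit, which reads the 3′ ends of polyadenylated transcripts and keeps strand, per the labels' protocols. STAR and the build GRCh38.p14 were used for alignment, per the submitters' processing notes; versions, annotation release and any use of molecular identifiers were not given in the sources used here. Raw counts per gene were deposited by the authors for each library (unstranded, transcript strand, opposite strand), with a merged count table, equal to the transcript-strand counts for 8 of 8 members. Reads assigned to no gene (35.5% to 43.2% per library) were left out, and the opposite strand held 7.25% to 8.07% of both strands' counts. No 2 libraries agreed within sampling noise.

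Transcript-strand counts were scaled with TMM factors to CPM. Genes passing filterByExpr (minimum count 10), 13838 of 60664, were tested with edgeR 4.0.16 (R 4.3.3) in 1 model of 4 group means, with Benjamini-Hochberg adjustment over all of them and a threshold of 0.05. The filter kept 7 of 8 members. DESeq2 1.42.0 and limma 3.58.1 (voom) were alternatives, with other scalings, filters, counts and library subsets. Ranges of sets overlap where neither set lies wholly above the other, and a ratio of all genes' medians had 0.1 CPM added. Log2 CPM for likeness had a prior count of 2. Intervals of single libraries and floors (3 counts) cover counting error only. Intervals of log2 fold changes come from the edgeR fit and include the spread between libraries. The fit was tested on simulated counts. Members and lists were chosen with earlier results of these data known. Besides the members, the named genes are DYRK1B, CDKN1A, CDKN1B, CDKN2A, CDKN2B, the 2 of each list with the highest mean CPM, and the 3 genes most like each member; markers, E2F4, CCNE2, CDC25A and overlapping neighbours were added after values were seen. Promoters and coordinates are from RefSeq (6 of 8 members had a window); overlaps are from GENCODE 29.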

Additional observations from a re-analysis of the deposited data

Results flagged for a closer look

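RBL1 differed in opposite directions in 2 comparisons of library sets, in each without overlap of the 3 libraries of one set with the 3 of the other. In libraries 2, 6 and 10 its median was 14.2 CPM against 18.6 CPM in libraries 1, 5 and 9, a ratio of 0.762. In libraries 4, 8 and 12 it was 24.0 CPM against 19.0 CPM in libraries 3, 7 and 11, a ratio of 1.27. Both gaps between the nearest libraries were within counting error. They lay between libraries 10 and 1 (16.2 and 18.6 CPM) and between libraries 12 and 7 (22.7 and 21.7 CPM). The difference between the 2 ratios was not tested, since the labels give the sets no condition.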

How the results depend on the processing

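Over the alternatives, 95 of 95 counts of called members stayed at 0, with member adjusted p-values from 0.950, 0.840, 0.891 and 0.805 up to 1.00 in the 4 comparisons, and 305 of 325 member fold changes kept their sign. The replicate number as a block called 0 genes and 0 members in each comparison, with 81, 116, 85 and 295 genes at an unadjusted p under 0.05. Deviations from the group means of libraries with the same replicate number correlated between -0.636 and 0.240. Libraries 2, 6 and 10, which lay far from the rest, carry different replicate numbers and enter these deviations. The values thus cannot show whether the numbers pair the libraries.

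Leaving out 1 library, 0 to 1 genes were called in Y273F doxycycline against control (1 without Y273F control 2, doxycycline 2 or doxycycline 3), in the difference (1 without Y273F doxycycline 2 or 3) and in the controls (1 without Y273F control 2), and 52 of 336 member values changed sign. For doxycycline in the WT line the ranges that cross 0 were -0.0696 to 0.32 for CCND1, -0.40 to 0.27 for CCND3, -0.0841 to 0.12 for CDK4 and -0.26 to 0.48 for CDK6. In the Y273F line they were -0.0167 to 0.24 for CCND1, -0.17 to 0.41 for CCND3 and -0.0597 to 0.0634 for CDK4. For the difference they were -0.20 to 0.19 for CCND1, -0.57 to 0.11 for CCND3, -0.0794 to 0.13 for CDK4, -0.53 to 0.21 for CDK6 and -0.21 to 0.11 for RB1. For the controls they were -0.14 to 0.25 for CCND1, -0.35 to 0.22 for CCND3, -0.0058 to 0.15 for CDK4, -0.12 to 0.36 for CDK6, -0.0591 to 0.17 for RB1 and -0.0514 to 0.30 for RBL2.

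Without libraries 2, 6 and 10, signs turned for CDK4 in the WT line (0.0468), for CCND1 (-0.0130), CCND3 (-0.17) and CDK4 (0.0266) in the Y273F line, for CCND1 (0.21), CCND3 (0.11) and CDK6 (0.0306) in the difference, and for CCND3 (0.22), CDK4 (-0.0097), RB1 (-0.0368) and RBL2 (-0.0627) in the controls. With only the groups compared, CDK4 turned to 0.0011 in the WT line and 0.0014 in the Y273F line. CDK4 also turned in the Y273F line with DESeq2 (1.41e-05) and limma-voom (0.0077), and in the difference with both (-0.0034 and -0.0202). CCND1 turned in the difference with limma-voom (0.0174) and unstranded counts (0.26), and RBL2 in the Y273F line with unstranded counts (0.0875). The cause of these turns was not tested.

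Of 136 log2 ratios of set medians under other settings, 126 stayed within the spread and 8 turned. For libraries 4, 8, 12 over 3, 7, 11 RBL2 turned with DESeq2 size factors (0.0096), upper-quartile factors (0.0109), unstranded counts (0.25) and the merged table (0.0041), and CDK4 with library totals alone (-0.0167). For 3, 7, 11 over 1, 5, 9 RB1 turned with upper-quartile factors (-0.0084) and RBL1 with library totals (-0.0217). With unstranded counts CCND1 turned for 2, 6, 10 over 4, 8, 12 (-0.21), and had 0.12 for 2, 6, 10 over 1, 5, 9 and 0.54 for 4, 8, 12 over 3, 7, 11. Members without overlap numbered 1 in place of 2 for 4, 8, 12 over 3, 7, 11 with library totals, and 0 in place of 1 for 3, 7, 11 over 1, 5, 9 with unstranded counts. The fit of only the groups compared was not run for the difference, which uses all groups. Depth limited CCND2 and, at 41 counts in WT control 2, RBL1.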
